A study of Mus musculus with 6 samples.

Results

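The genes described here are 9 genes of coagulation, the protein C pathway and fibrinolysis, Procr, Thbd, F3, Tfpi, Tfpi2, Plat, Plau, Plaur and Serpine2, taken by symbol from the 49548 genes of the deposited table. All 9 had a row in the table and passed the filter on low values. Their RNA was measured by 3′ mRNA sequencing in cancer-associated fibroblasts (CAFs) sorted from colonic adenomas of C57/BL6 mice that had received the carcinogen azoxymethane (AOM) and the colitis-inducing agent dextran sodium sulfate (DSS). All mice carried Col6a1-cre and the Rosa26-mTmG reporter, in which Cre replaces membrane Tomato with membrane GFP, and were young adults when AOM was given. Cells with CD45, EpCAM, CD31 or Ter119 on their surface were excluded by the sort, and the remaining GFP+ cells (Col6a1+ CAFs, 3 libraries) and Tomato+ cells (Col6a1- CAFs, 3 libraries) were compared. Each library came from a pool of tumors of several mice. The Cre line labels mainly PDGFRα-high fibroblasts and perivascular cells of the intestine, so Col6a1+ CAFs are a mixture of these, and Col6a1- CAFs are every other cell that passed the sort. The comparison asks how the RNA of clotting and clot-dissolving genes is divided between the 2 sorted groups of cells.

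Clotting outside the vessel starts when tissue factor, the product of F3, meets factor VII of the plasma, and cells that wrap blood vessels are known to carry tissue factor. Tissue factor pathway inhibitor (Tfpi) shuts this step off, while thrombin bound to thrombomodulin (Thbd) activates protein C that is held by the endothelial protein C receptor (Procr, also called CD201), and activated protein C with protein S destroys the cofactors Va and VIIIa. In fibrinolysis, tissue-type (Plat) and urokinase-type (Plau) plasminogen activators turn plasminogen into plasmin, the urokinase receptor (Plaur) keeps urokinase at the cell surface, and protease nexin (Serpine2) inhibits thrombin and both activators. The same enzymes cut matrix and growth factors, for which they are known in tumor stroma.

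Values are normalized counts, read counts divided by the authors' size factors, and log2 fold changes are Col6a1+ minus Col6a1- CAFs on the log2 scale of normalized count plus 1. The libraries held between 3039152 and 3425249 normalized counts each, and Col6a1+ CAFs replicate 1 stood apart, with 14530 genes at 1 or more against 18770 to 20511 in the other libraries. Col6a1 itself lay between 861 and 1941 in Col6a1+ CAFs and between 102 and 321 in Col6a1- CAFs. The labelled cell type was checked against marker lists. Fibroblast markers summed to 38075 to 42443 in Col6a1+ and 7122 to 14441 in Col6a1- CAFs, with 4 of 7 called higher in the former, and none of these markers was absent. All 8 pericyte markers were called higher in Col6a1+ CAFs, with sums of 41577 to 90981 against 1147 to 2141, as were 5 of 7 smooth muscle markers, with sums of 12471 to 25035 against 493 to 2423. Epithelial markers summed to 5750 to 6474 in Col6a1+ and to 20190 to 32330 in Col6a1- CAFs, and 7 of 10 were called lower in Col6a1+ CAFs, Cdh1 and Epcam among those present in every library. In every Col6a1- library the epithelial sum thus lay above the fibroblast sum, over unlike lists of 10 and 7 genes. Cdh1 alone gave 10493, 15452 and 11963 normalized counts in the Col6a1- libraries. The part of epithelial transcripts in the differences between the groups was not tested. Immune markers summed to 52 to 81 and 448 to 845, with S100a8 and S100a9 called lower. Erythroid and platelet markers summed to 272 to 1015 and 184 to 2558, glial markers to 55 to 73 and 29 to 76, and mesothelial markers to 1 to 7 and 7 to 33, with none called and with Lrrn4 at 0 throughout. The plot of summed markers shows these levels.

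**Figure D1:**
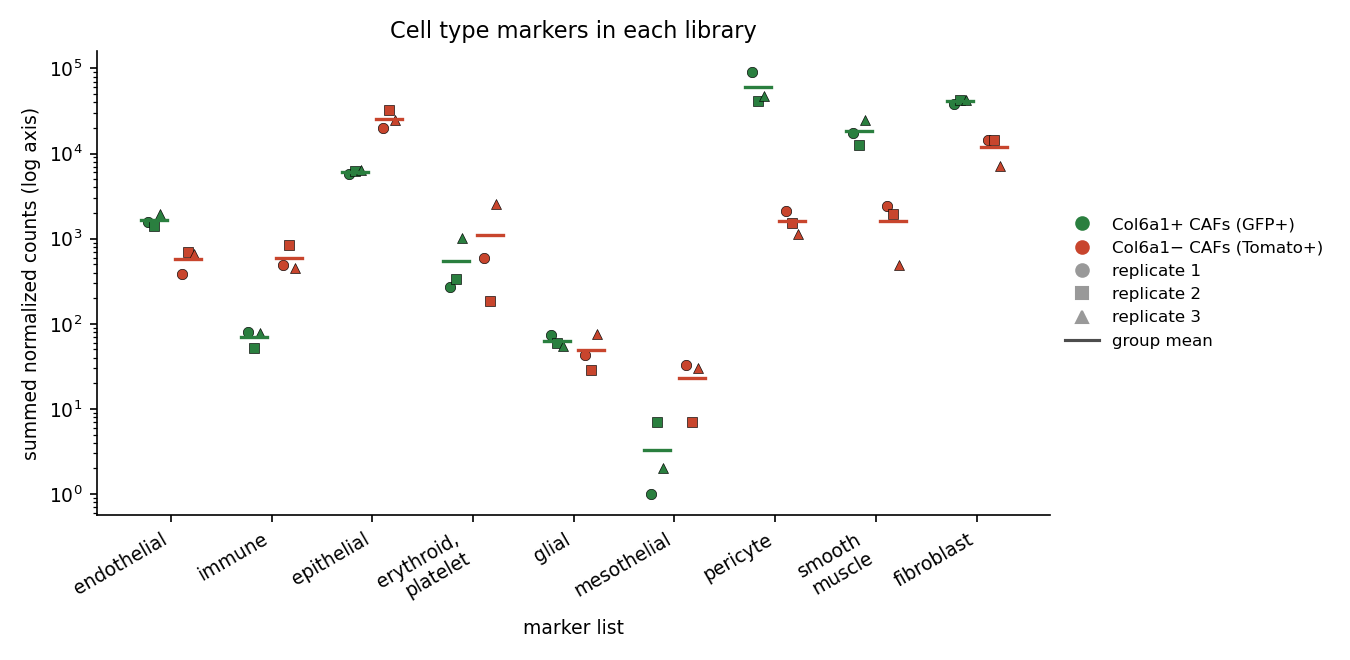
Summed normalized counts (log axis) of 9 lists of cell type markers in each library of Col6a1+ (green) and Col6a1- CAFs (red), with symbols for the replicate and a line at the group mean. Epithelial markers sum to 5750 to 6474 in Col6a1+ and 20190 to 32330 in Col6a1- CAFs, and fibroblast, pericyte and smooth muscle markers lie higher in Col6a1+ CAFs.

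Of the 9 genes, 5 were higher in Col6a1+ CAFs, namely Procr and Thbd of the protein C pathway, the tissue factor inhibitor Tfpi, the activator Plau and the inhibitor Serpine2, by 3.61-fold to 5.24-fold. This was at an adjusted p under 0.05 in limma, a call that 2.66% of the 26402 genes tested received in this direction and 4.62% in either. Many of these genes had low counts, while 8 of the 9 had a mean normalized count of 10 or more. When only the 13515 genes with such a mean were tested, 815 were called higher, the same 5 genes among them. None of the 9 was called lower by limma, against 1.96% of all genes, nor by limma-voom. None of the 9 reached an unadjusted p under 0.05 in that direction, which 9.4% of all genes did. The other 4 genes, F3, Tfpi2, Plat and Plaur, were not called. The libraries of the 2 groups did not overlap for the same 5 genes, a pattern seen for 7.91% of all genes, and no gene had the reverse pattern, which 11.6% of all genes had. The median log2 fold change of the 9 genes was 1.85, also with Tfpi2 set to the bound that its low counts allow, and that of all genes tested was -0.27. The plot of the levels by library shows the 5 genes with separate groups and the 4 whose groups overlap. In such bulk samples, fewer cells of a type and less RNA per cell cannot be told apart. Pericyte, smooth muscle and fibroblast markers were higher in the same libraries as these 5 genes, and their part in the differences was not tested.

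**Figure D2:**
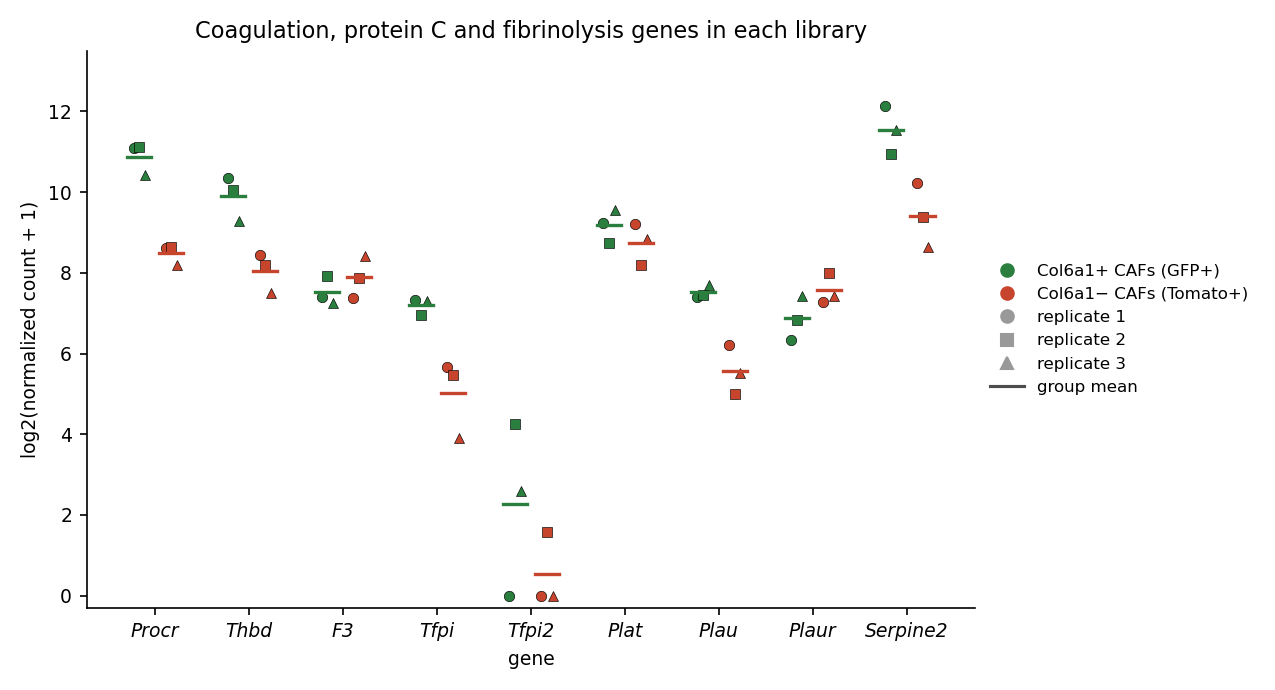
log2(normalized count + 1) of the 9 genes in each of the 3 libraries of Col6a1+ (green) and Col6a1- CAFs (red), with symbols for the replicate number and a line at the group mean of the log2 values. Procr, Thbd, Tfpi, Plau and Serpine2 have all Col6a1+ libraries above all Col6a1- libraries, and F3, Tfpi2, Plat and Plaur overlap.

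These calls depended on the scaling and on the pairing of replicates. With values taken relative to the 7 fibroblast markers of the same library, an alternative chosen after the marker levels were seen, 0.932% of all genes were called higher and 54.3% lower in Col6a1+ CAFs, since that scaling lowers each log2 fold change by 1.55. None of the 9 was then called higher, and F3 and Plaur were called lower, at a background in which most genes were. The plot of differences under both scalings shows that Plat changed sign, from 0.43 to -1.12. With the replicate number as a block, 0 genes of the whole table and 0 of the 9 passed, without a filter none of the 9 passed either, and with the block and a stricter filter, a mean normalized count of 10 or more, the 5 genes passed, as did 7.26% of the 13515 genes then tested in that direction.

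**Figure D3:**
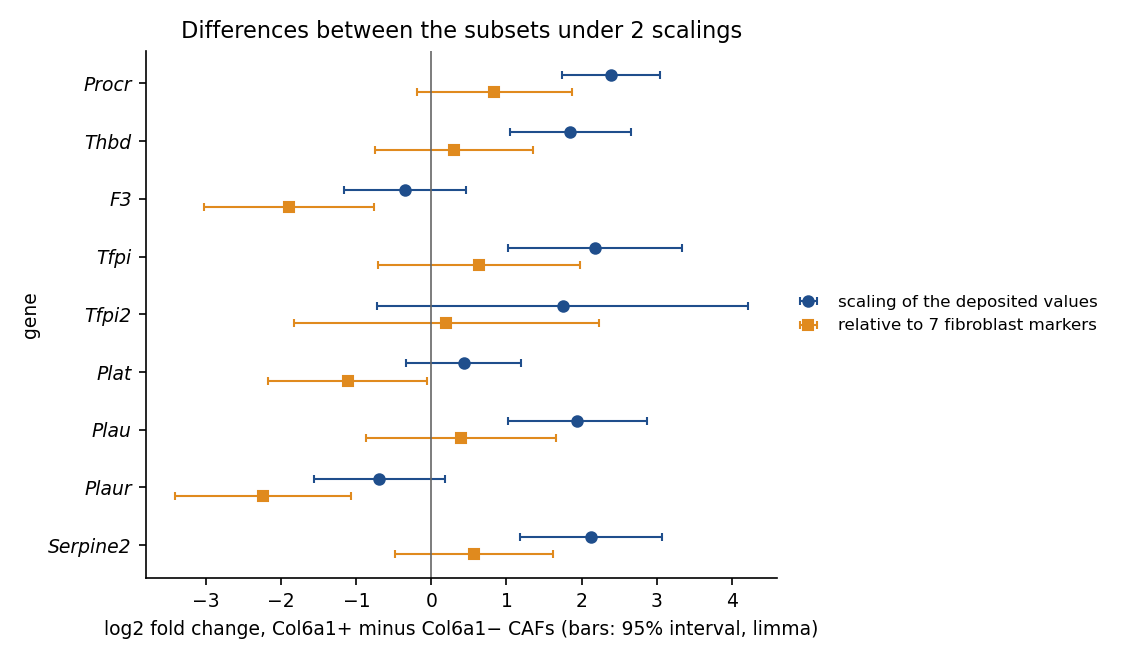
log2 fold change of the 9 genes (Col6a1+ minus Col6a1- CAFs, limma, bars are the 95% interval), with the deposited scaling (blue circles) and relative to 7 fibroblast markers (orange squares). All values lie 1.55 lower under the fibroblast scaling, where the intervals of F3, Plaur and Plat lie below 0 and those of the 5 genes called higher under the deposited scaling include 0.

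Procr (ENSMUSG00000027611, mm10 chr2:155751117-155755471, plus strand), the receptor that presents protein C, was measured at 2174, 2204 and 1376 normalized counts in Col6a1+ CAFs and at 389, 400 and 292 in Col6a1- CAFs. The lowest Col6a1+ library was well above the highest Col6a1- library. The group means were 1918 ± 470 and 360.3 ± 59.4 (SD, n = 3 each), and the log2 fold change was 2.39 with an SE of 0.30, or 5.24-fold with a 95% interval of 3.32 to 8.27 (limma adjusted p = 0.00203). Fits without 1 library gave log2 fold changes of 2.25 to 2.61, and the call was lost without Col6a1- CAFs replicate 1 (limma adjusted p = 0.0717) or replicate 3 (0.0541). With the replicate block the limma adjusted p was 0.0612, or 0.00150 with that stricter filter. Relative to the fibroblast markers the log2 fold change was 0.84, with an interval of -0.20 to 1.87 (limma adjusted p = 0.148). The alternatives together ranged from an adjusted p of 8.52e-04 to 0.148. Of the 5 genes called higher, Procr had the most fits without 1 library that kept the call, 4 of 6.

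The 250 bases before the start of Procr in RefSeq are shown because Procr was the called gene with the largest fold change. They span GRCm38.p6 chr2:155750967-155751216 on the plus strand and are printed 5′ to 3′, with capitals for motif matches. The RefSeq start lies downstream of the start of the gene span given above, so the last part of the window falls inside that span.
Procr: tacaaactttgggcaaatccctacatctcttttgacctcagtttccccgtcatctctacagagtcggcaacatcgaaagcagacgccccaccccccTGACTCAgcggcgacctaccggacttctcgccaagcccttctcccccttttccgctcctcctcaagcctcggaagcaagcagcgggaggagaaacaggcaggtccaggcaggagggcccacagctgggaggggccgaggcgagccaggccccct
The window holds 1 match to TGANTCA, the letters of an AP-1 site, 154 bases before the start. On either strand, 6.75% of all 32851 promoter windows of this length hold that motif. The other motifs searched were the TATA box TATAAA, in 12.4% of windows, the GC box GGGCGG, in 32.7%, the TEAD site GGAATG, in 12.6%, and the RBPJ site TGGGAA, in 21.6%, where the last pair can overlap in shared letters. A match describes letters in the window and no binding was measured. RefSeq windows were matched for 6 of the 9 genes, in 9 windows, since Tfpi has 2 and Tfpi2 has 3. None of the 9 windows holds the TEAD letters.

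Thbd (ENSMUSG00000074743, mm10 chr2:148404466-148408188, minus strand), thrombomodulin, which turns thrombin from a clotting enzyme into an activator of protein C, stood at 1299, 1055 and 627 normalized counts in Col6a1+ CAFs and at 345, 293 and 179 in Col6a1- CAFs. Again the groups were separate, with replicate 3 the lowest library of each group. The means of 994 ± 340 and 272 ± 84.9 (SD, n = 3 each) gave a log2 fold change of 1.85 with an SE of 0.37, or 3.61-fold with an interval of 2.06 to 6.33 (limma adjusted p = 0.0180). Leaving out 1 library moved the log2 fold change between 1.58 and 2.15 and the adjusted p between 0.0421 and 0.149, and the call was kept only without Col6a1+ CAFs replicate 3. The replicate block gave a limma adjusted p of 0.0612, or 0.00308 with that stricter filter. After scaling to the fibroblast markers, Thbd had a log2 fold change of 0.30 with an interval of -0.75 to 1.36 (limma adjusted p = 0.611, the highest of the alternatives, whose lowest was 0.00308).

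Procr, Thbd and Tfpi are best known from endothelium, so the endothelial markers bear on these genes. Their sum was 1420 to 1969 in Col6a1+ and 382 to 699 in Col6a1- CAFs, of which Esam accounted for 943 to 1125 and 38 to 93. Of the 10 markers, 2 were called higher, Tie1 and Esam, and none lower. The log2 fold change was above 0 for 3 of the 10, and the median of the list was -1.03. The defining endothelial genes Pecam1 and Cdh5 were low, with Pecam1 at 0, 21 and 27 normalized counts in Col6a1+ and at 13, 64 and 44 in Col6a1- CAFs. Cdh5 lay between 4 and 10 in Col6a1+ CAFs and between 24 and 39 in Col6a1- CAFs. Egfl7 was also lower without overlap, at 0, 55 and 88 in Col6a1+ and at 179, 271 and 170 in Col6a1- CAFs. It was not called (log2 fold change -3.57, limma adjusted p = 0.197). Flt1 of the same list had the direction of Procr and Thbd, at 280, 276 and 466 in Col6a1+ and at 24, 91 and 159 in Col6a1- CAFs, without overlap but not called (log2 fold change 2.21, limma adjusted p = 0.0686). By flow cytometry, the paper reports CD201, the product of Procr, on GFP+ adenoma cells negative for the excluded surface markers. It describes CD201 as a marker of PDGFRα-high fibroblasts and pericytes. The part of endothelial transcripts in the levels of Procr, Thbd and Tfpi was not tested.

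F3 (ENSMUSG00000028128, mm10 chr3:121723537-121735048, plus strand), tissue factor, was found at 169, 243 and 152 normalized counts in Col6a1+ CAFs and at 164, 233 and 340 in Col6a1- CAFs. The groups overlapped, and Col6a1- CAFs replicate 3 was the highest library. The means were 188 ± 48.4 and 246 ± 88.7 (SD, n = 3 each), and the log2 fold change of -0.35, with an interval of -1.17 to 0.46, was not called (limma adjusted p = 0.642). Scaled to the fibroblast markers, it was -1.90 with an interval of -3.03 to -0.77 (limma adjusted p = 0.00474). That scaling lowers each log2 fold change by 1.55, and 54.3% of all genes were then called lower. Epithelial markers summed to more in every Col6a1- library, and their part in the level of F3 was not tested.

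Tfpi (ENSMUSG00000027082, mm10 chr2:84432855-84476775, minus strand), the inhibitor of tissue factor with factor VIIa, had 160, 124 and 156 normalized counts in Col6a1+ CAFs and 50, 43 and 14 in Col6a1- CAFs. The groups were separate, and Col6a1- CAFs replicate 3 was the lowest. From means of 147 ± 19.7 and 35.7 ± 19.1 (SD, n = 3 each), the log2 fold change was 2.18 with an SE of 0.52, or 4.54-fold with an interval of 2.04 to 10.1 (limma adjusted p = 0.0414). This was the call closest to the threshold. It was lost with a pseudocount of 0.1 (limma adjusted p = 0.0635), with the replicate block (0.137) and without any 1 of the 6 libraries (0.108 to 0.177, log2 fold change 1.63 to 2.51), while the block with the stricter filter gave 0.0257. Without Col6a1- CAFs replicate 3 the log2 fold change was at its lowest, 1.63. Relative to the fibroblast markers the log2 fold change was 0.63, with an interval of -0.71 to 1.97 (limma adjusted p = 0.398, the highest of the alternatives, whose lowest was 0.0257).

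The promoter windows of F3 and Tfpi, the trigger and its inhibitor, are shown because the first was not called and the second was. They span GRCm38.p6 chr3:121723287-121723536 on the plus strand and chr2:84476760-84477009 on the minus strand, the window of Tfpi farther upstream. The last bases of the Tfpi window fall inside the gene span given above.
F3: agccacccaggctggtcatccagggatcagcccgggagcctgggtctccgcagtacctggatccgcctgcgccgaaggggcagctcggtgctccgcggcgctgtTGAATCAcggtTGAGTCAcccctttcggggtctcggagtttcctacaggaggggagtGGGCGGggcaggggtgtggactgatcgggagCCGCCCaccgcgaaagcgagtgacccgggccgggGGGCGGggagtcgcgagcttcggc
Tfpi: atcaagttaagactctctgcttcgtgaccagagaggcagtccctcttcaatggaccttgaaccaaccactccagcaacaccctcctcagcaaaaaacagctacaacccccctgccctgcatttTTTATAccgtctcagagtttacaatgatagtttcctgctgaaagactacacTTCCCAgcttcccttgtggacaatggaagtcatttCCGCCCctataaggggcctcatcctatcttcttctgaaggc
The F3 window holds 2 AP-1 matches, 146 and 135 bases before the start, and 3 GC boxes, and 70% of its bases are G or C. The Tfpi window holds a TATA box 127 bases, an RBPJ match 76 bases and a GC box 41 bases before the start, and 48.4% of its bases are G or C, against a median of 52.4% over all windows. A match to the TATA letters or the RBPJ letters was absent from the windows of F3, Procr, Plaur and Serpine2.

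Tfpi2 (ENSMUSG00000029664, mm10 chr6:3962595-3988919, minus strand), a related inhibitor that acts mainly on plasmin and trypsin, was near the detection limit, with 0, 18 and 5 normalized counts in Col6a1+ CAFs and 0, 2 and 0 in Col6a1- CAFs. Most of its counts came from Col6a1+ CAFs replicate 2, and the groups overlapped at 0. The sums of 23 and 2 gave a ratio of 11.5 with a 95% counting interval of 2.84 to 101 (exact conditional binomial), which covers counting error only. The log2 fold change had an interval of -0.72 to 4.22 (limma adjusted p = 0.505) and was not called. It was 2.89 without Col6a1+ CAFs replicate 1 and 0.76 without Col6a1+ CAFs replicate 2, the lowest and highest library of that group.

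Plat (ENSMUSG00000031538, mm10 chr8:22757727-22782844, plus strand), the tissue-type plasminogen activator, was measured at 602, 428 and 755 normalized counts in Col6a1+ CAFs and at 587, 294 and 457 in Col6a1- CAFs. The groups overlapped, and replicate 2 was the lowest library of each. With means of 595 ± 164 and 446 ± 147 (SD, n = 3 each), the log2 fold change of 0.43, interval -0.33 to 1.20, was not called (limma adjusted p = 0.603). Fibroblast marker scaling turned it to -1.12, interval -2.18 to -0.05 (limma adjusted p = 0.0664).

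Plau (ENSMUSG00000021822, mm10 chr14:20836662-20843388, plus strand), urokinase, lay at 169, 174 and 208 normalized counts in Col6a1+ CAFs and at 73, 31 and 45 in Col6a1- CAFs. Its groups were separate, and the Col6a1+ libraries were close to each other. The means were 184 ± 21.2 and 49.7 ± 21.4 (SD, n = 3 each), a 3.85-fold difference with an interval of 2.03 to 7.31 (limma adjusted p = 0.0261). The call was lost without any 1 of the 6 libraries (limma adjusted p = 0.0614 to 0.151, log2 fold change 1.66 to 2.26) and with the replicate block (0.107), and kept with the block and the stricter filter (0.0173). Relative to the fibroblast markers the log2 fold change was 0.39, interval -0.87 to 1.66 (limma adjusted p = 0.579, the highest of the alternatives, whose lowest was 0.0173).

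Plaur (ENSMUSG00000046223, mm10 chr7:24462484-24475968, plus strand), the receptor of urokinase, was lower on average in Col6a1+ CAFs, with 80, 113 and 172 normalized counts in Col6a1+ CAFs and 153, 253 and 172 in Col6a1- CAFs. Replicate 3 had equal values in both groups, so the groups overlapped. The means of 122 ± 46.6 and 193 ± 53.1 (SD, n = 3 each) gave a log2 fold change of -0.69, interval -1.56 to 0.18, which was not called (limma adjusted p = 0.434). Fibroblast marker scaling gave -2.25, interval -3.42 to -1.07 (limma adjusted p = 0.00198), where 54.3% of all genes were called lower. Epithelial and immune markers were higher in the Col6a1- libraries, and their part in the level of Plaur was not tested.

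Serpine2 (ENSMUSG00000026249, mm10 chr1:79794197-79861180, minus strand), protease nexin, had 4501, 1983 and 2955 normalized counts in Col6a1+ CAFs and 1197, 667 and 399 in Col6a1- CAFs. The groups were separate although both were spread widely, and replicate 1 was the highest library of each. From means of 3146 ± 1270 and 754 ± 406 (SD, n = 3 each), the log2 fold change was 2.12 with an SE of 0.43, or 4.35-fold with an interval of 2.26 to 8.40 (limma adjusted p = 0.0199). Without any 1 of the 6 libraries the limma adjusted p was 0.0553 to 0.159, with log2 fold changes of 1.73 to 2.53. The replicate block gave 0.0725, or 0.00421 with that stricter filter. Relative to the fibroblast markers the log2 fold change was 0.57, interval -0.48 to 1.63 (limma adjusted p = 0.332, the highest of the alternatives, whose lowest was 0.00421).

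Promoter windows of the urokinase receptor and of protease nexin are shown for the same contrast, an uncalled and a called gene of the plasminogen system. They span GRCm38.p6 chr7:24462233-24462482 on the plus strand and chr1:79858666-79858915 on the minus strand. The whole Serpine2 window lies inside the gene span given above, since its RefSeq start is downstream of the start of that span.
Plaur: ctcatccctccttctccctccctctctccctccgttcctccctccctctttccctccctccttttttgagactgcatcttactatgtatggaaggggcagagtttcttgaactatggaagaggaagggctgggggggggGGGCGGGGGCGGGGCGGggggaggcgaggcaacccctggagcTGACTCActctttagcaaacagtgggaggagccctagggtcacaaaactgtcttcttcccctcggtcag
Serpine2: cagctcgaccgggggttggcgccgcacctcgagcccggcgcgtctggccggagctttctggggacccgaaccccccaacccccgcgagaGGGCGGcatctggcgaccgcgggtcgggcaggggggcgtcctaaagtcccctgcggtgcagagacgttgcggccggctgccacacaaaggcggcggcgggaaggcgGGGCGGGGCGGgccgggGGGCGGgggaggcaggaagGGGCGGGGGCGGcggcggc
The Plaur window holds 3 GC boxes in 1 run, from 111 to 100 bases before the start, and an AP-1 match 69 bases before it. The Serpine2 window holds 6 GC boxes and no other motif searched, and 78.8% of its bases are G or C. AP-1 letters were thus in the windows of 1 called gene, Procr, and of 3 uncalled genes, F3, Plaur and Tfpi2, the last in 1 of its 3 windows. Thbd and Plau, both called, and Plat, not called, had no matched window and are outside this tally.

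Ratios of partner genes within a library do not depend on the scaling between libraries, and 5 were compared, with an exact permutation test (two-sided, 20 rearrangements, smallest possible p = 0.1) that could not reach 0.05 with 3 against 3 libraries. Tfpi over F3, the inhibitor over its target, had log2 ratios of -0.08, -0.96 and 0.04 in Col6a1+ CAFs and of -1.69, -2.41 and -4.51 in Col6a1- CAFs. The groups were separate, and the ratio was 5.80-fold higher in Col6a1+ CAFs (exact permutation p = 0.1, 0.125 adjusted over the 5 ratios), or 1.72 to 3.12 on the log2 scale without any 1 library. Without Col6a1- CAFs replicate 3 it was at its lowest, 1.72. Plaur over Plau, the receptor over its ligand, was -0.65 ± 0.40 in Col6a1+ and 1.99 ± 0.97 in Col6a1- CAFs (log2, SD), a 6.23-fold lower ratio in Col6a1+ CAFs, again without overlap. Leaving out 1 library moved that difference between -3.10 and -2.14. The log2 ratio was above 0 in all 3 Col6a1- libraries and below 0 in all 3 Col6a1+ libraries, as a ratio of counts that were not set per length.

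Plat over Serpine2, an activator over its inhibitor, was -2.36 ± 0.48 in Col6a1+ and -0.67 ± 0.75 in Col6a1- CAFs (log2, SD), a ratio 3.22-fold lower in Col6a1+ CAFs without overlap. Procr over Thbd, the 2 receptors of the protein C pathway, differed less, at 0.98 ± 0.21 and 0.44 ± 0.27, a ratio 1.45-fold higher in Col6a1+ CAFs, and its groups did not overlap either. The exact permutation p was 0.1 for each of these 4 ratios (0.125 adjusted), and all 3 same-numbered pairs had the direction of the mean (sign-flip permutation p = 0.25, the smallest that 3 pairs allow). Plau over Serpine2, urokinase over its inhibitor, was -4.02 ± 0.63 and -3.84 ± 0.65, with overlapping groups and a difference of -0.18 (exact permutation p = 0.8). That difference ranged from -0.45 to 0.18 without 1 library and turned positive without Col6a1+ CAFs replicate 1 or Col6a1- CAFs replicate 3, so no direction was seen for this pair. The plot of the ratios shows 4 pairs of separate groups and 1 that overlaps. Each ratio difference equals the difference of the log2 fold changes of its 2 genes, so the ratios restate those values and are not separate results. How often other gene pairs have separate groups was not counted.

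**Figure D4:**
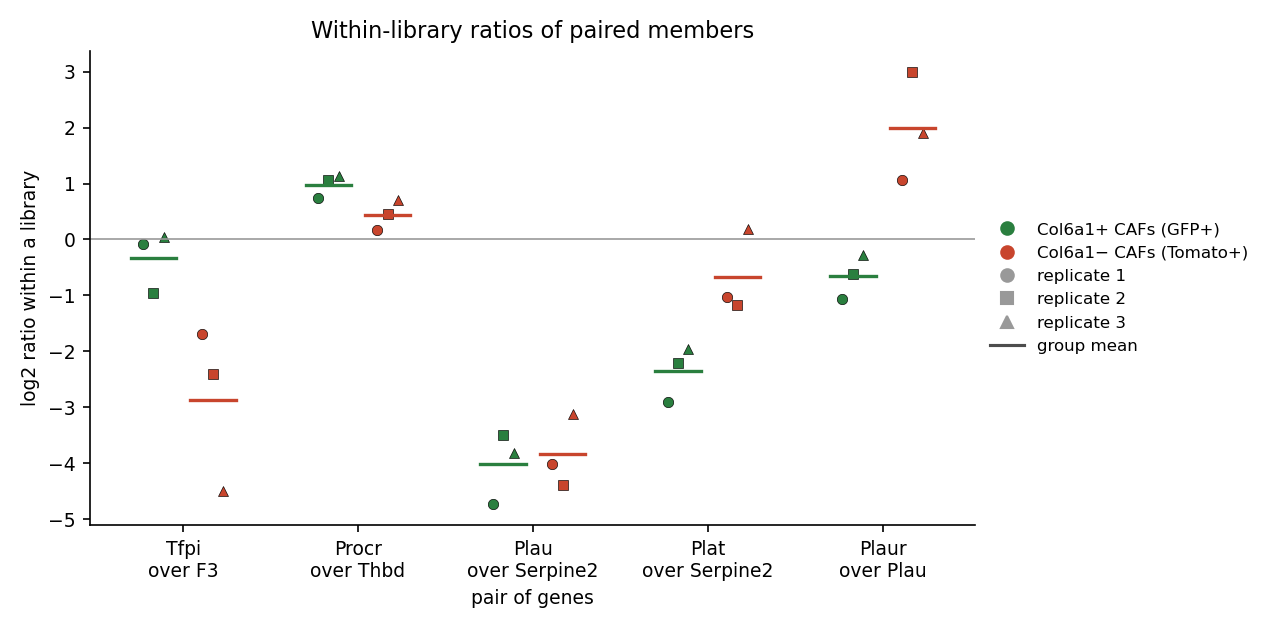
log2 ratio of 2 genes within each library of Col6a1+ (green) and Col6a1- CAFs (red), with symbols for the replicate number and a line at the group mean. Tfpi over F3 and Procr over Thbd lie higher, and Plat over Serpine2 and Plaur over Plau lower, in Col6a1+ CAFs, and Plau over Serpine2 overlaps.

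Another 40 genes of clotting and fibrinolysis were taken from lists of the protein C pathway, the coagulation factors, other coagulation inhibitors and the plasminogen system. Of these, 13 had no count in any library, 27 were tested, 4 were called higher in Col6a1+ CAFs and 0 lower by limma, against 2.66% and 1.96% of all genes. Their median log2 fold change was -0.31, close to the -0.27 of all genes. All 4 calls were lost with the replicate block and kept with the block and the stricter filter (limma adjusted p = 0.00258 to 0.00630), and the plot of the pathway lists shows where they lie.

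**Figure D5:**
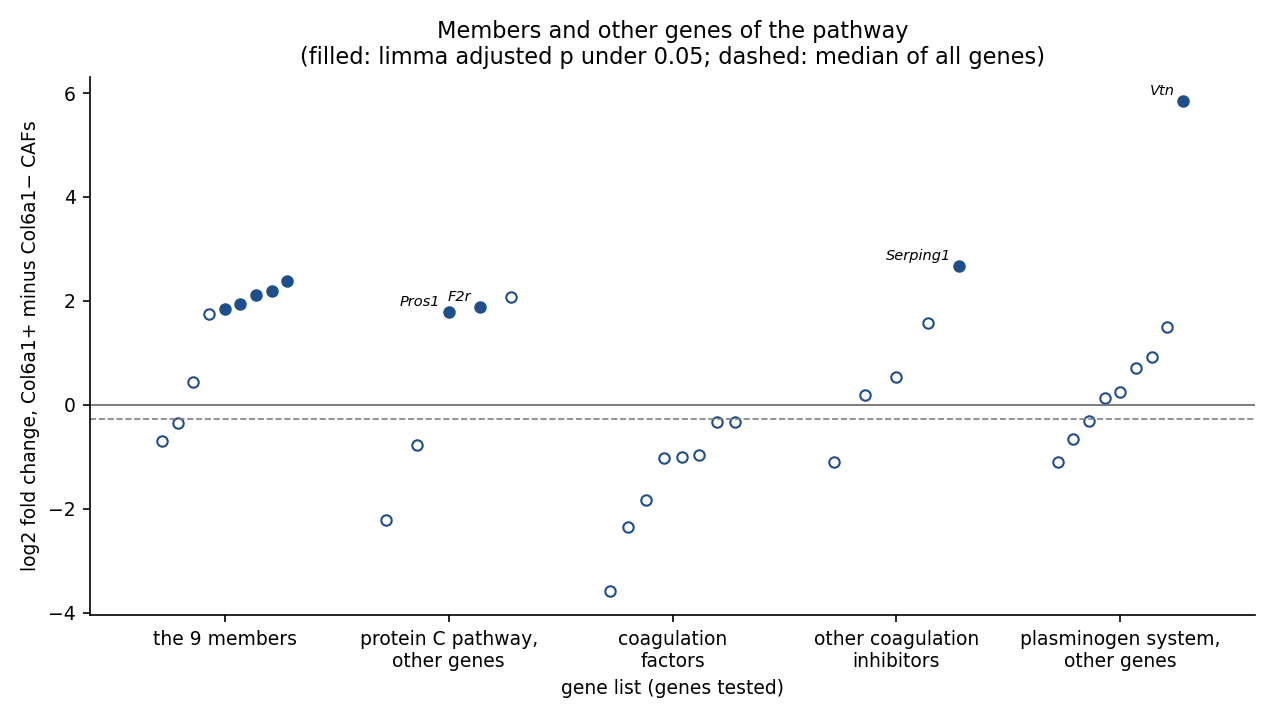
log2 fold change (Col6a1+ minus Col6a1- CAFs, limma) of the 9 genes and of the tested genes of 4 further pathway lists, 1 circle per gene, filled where the limma adjusted p was under 0.05. The 8 coagulation factors tested all lie below 0 and the filled circles outside the 9 genes are Pros1, F2r, Serping1 and Vtn, with a dashed line at the median of all genes, -0.27.

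In the protein C pathway, 2 of 5 other genes tested were called higher. Pros1, which encodes protein S, the cofactor of activated protein C, was at 677, 481 and 419 normalized counts in Col6a1+ and at 177, 190 and 98 in Col6a1- CAFs. The groups were separate, with a log2 fold change of 1.78 and an SE of 0.36 (limma adjusted p = 0.0192, 0.0717 with the replicate block). F2r, the thrombin receptor PAR1 on which activated protein C also signals, was at 2053, 1864 and 1219 in Col6a1+ and at 517, 568 and 313 in Col6a1- CAFs. Its groups were also separate, with a log2 fold change of 1.89 and an SE of 0.33 (limma adjusted p = 0.0105, 0.0612 with the block). Scaled to fibroblast markers, the log2 fold changes of Pros1 and F2r were 0.23 and 0.33, neither called. Leaving out 1 library ended the call of Pros1 each time (limma adjusted p = 0.0689 to 0.125) and kept that of F2r in 1 of 6 fits (0.0375 to 0.107).

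The clotting factors themselves were scarce. Of 16 genes, 8 were at 0 in every library, F8, F11, F12, F13b, Kng1 and the fibrinogen genes Fga, Fgb and Fgg, and the summed counts of the list were 4 to 43 in Col6a1+ and 59 to 85 in Col6a1- CAFs. None of the 8 tested was called, although each had a log2 fold change below 0. Prothrombin (F2) was at 0 in the 3 Col6a1+ libraries and at 17, 4 and 18 in the Col6a1- libraries (limma adjusted p = 0.0559). Epithelial markers were higher in the same libraries, and their part in these low counts was not tested.

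Of the other inhibitors of coagulation, 1 of 5 tested was called, Serping1, the C1 inhibitor, which also blocks kallikrein and factor XIIa. It was at 10080, 5115 and 5454 normalized counts in Col6a1+ CAFs and at 2013, 1157 and 465 in Col6a1- CAFs, log2 fold change 2.67 (SE 0.49) (limma adjusted p = 0.0130, 0.0630 with the replicate block). The groups were separate. Scaled to the fibroblast markers, it was 1.12 (limma adjusted p = 0.0664), and without any 1 of the 6 libraries the call was lost (0.0673 to 0.125).

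In the plasminogen system, 1 of 9 other genes tested was called, Vtn (vitronectin, a matrix protein that binds the urokinase receptor). It was at 67, 130 and 168 normalized counts in Col6a1+ and at 0, 7 and 0 in Col6a1- CAFs, with separate groups (limma adjusted p = 0.00851, 0.0729 with the replicate block), and stayed called relative to the fibroblast markers (log2 fold change 4.29, limma adjusted p = 7.06e-04). Leaving out 1 library kept the call of Vtn in 2 of 6 fits (limma adjusted p = 0.0247 to 0.105). S100a10 and Anxa2 form the annexin complex that gathers plasminogen and the tissue-type activator at cell surfaces. S100a10 was at 565, 589 and 574 normalized counts in Col6a1+ and at 1074, 1650 and 1077 in Col6a1- CAFs, without overlap. The log2 fold change was -1.11 (SE 0.28), at the edge of the threshold (limma adjusted p = 0.0509). Anxa2 overlapped, at 3584, 3817 and 3955 against 4786, 6194 and 3507 (log2 fold change -0.31, limma adjusted p = 0.636). Under fibroblast marker scaling both were called lower (limma adjusted p = 4.09e-05 and 0.00416), as were 54.3% of all genes. Plasminogen itself (Plg) was at 0 in every library.

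Genes whose levels followed the 9 most closely over the 6 libraries were found among 8437 genes whose mean normalized count was 50 or more, by the root mean square distance of centred log2 values, as a description. For Procr these were Mfge8, Col6a4 and Jam3, at distances of 0.20 to 0.24. Thbd was followed by C1s1 (0.10), the thrombin receptor gene F2r (0.14) and Foxl1 (0.17). Tfpi was closest to the collagen gene Col5a1 (0.16), then Rcn3 and Pde1b, and Plau to Casp12 (0.14) and the cyclooxygenase gene Ptgs2 (0.17). Serpine2 was nearest to Ajuba and Tpm4 (both 0.16) and to Anxa6 (0.21). The genes near the uncalled members were others, with Arid5a, Coq5 and Supt5 for F3, Med25, Sarnp and Pwp1 for Plat, and Por, Cd2bp2 and Rplp0 for Plaur, at distances of 0.09 to 0.15. No gene came as close to Tfpi2, where Klhl13, Fbln7 and Efemp2 were at 0.32 to 0.55.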

How the data were processed

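The data are 3′ mRNA (QuantSeq, Ion Proton) libraries of sorted Col6a1+ and Col6a1- CAFs, 3 of each, grouped by the labels of the libraries. The authors mapped reads to mm10 with TopHat2 and Bowtie2, counted them per gene with GenomicRanges and normalized them with DESeq through metaseqR. Whether counting used strand is not given in the sources used here, and no other gene of the table overlaps the 9 genes. The deposited values are the log2 of the normalized count plus 1, and 100% are whole normalized counts within 1e-06. The authors' p-values, false discovery rates and fold changes, and a further 6 columns of per-sample values, were not used.

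Genes whose 6 libraries summed to 1 normalized count or more (26402) entered a limma 3.58.1 fit of group (R 4.3.3), whose moderated variances followed the mean, with 4 residual and 6.48 prior degrees of freedom. Benjamini-Hochberg adjustment ran over all of them, and calls were made under an adjusted p of 0.05. Exact permutation tests enumerated all rearrangements with NumPy 2.4.6, and SciPy 1.17.1 gave the counting interval of Tfpi2. The procedure was tested on simulated data. The 9 genes, the gene lists and the markers were chosen with earlier results of these data known. Genes named are the 9, the called genes of the pathway lists, F2r, Anxa2, S100a10, Col6a1, the 3 nearest genes of each of the 9, and those on which a result turns, and some genes that this rule names are not reported here. F2 and the genes named at 0 were added after their values were seen. Depth, estimated for 5 libraries from the step between low values, was 2568312 to 4519185 reads, and intervals from counts cover counting error only.

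Same-numbered libraries deviated together from their group means (r = 0.25, 0.13 and 0.14 over 13515 genes, against -0.25 to 0.15 for other numbers). The highest r of other numbers, Col6a1+ CAFs replicate 2 with Col6a1- CAFs replicate 3, exceeded 0.13 and 0.14, so this correlation does not settle the pairing. The labels name no shared mice or day. The paper describes 3 samples, each a pool of tumors of several mice, and a sort of both cell groups from the adenomas. Libraries of the 2 groups may thus share pools, though which ones is not given. The main fit took no pairs, so it leaves any shared pool out of account. Among the tests, same numbers were paired only in the block fits and the sign-flip test. Where nothing says that libraries of a group came from separate mice, p-values measure the spread between these libraries. Alternatives were a pseudocount of 0.1, a mean normalized count of 10 or more, no filter, library totals, limma-voom, the replicate block with and without the filter, leaving out each library, and, chosen after seeing the data, scaling to 7 fibroblast markers (Col1a1, Col1a2, Col3a1, Dcn, Lum, Pdgfra and Pdpn). Promoter windows are those of RefSeq for GRCm38.p6, whose starts can differ from the gene starts of the deposited values.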

Additional observations from a re-analysis of the deposited data

How the results depend on the processing

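Over all genes, 703 were called higher and 517 lower in Col6a1+ CAFs. Without a filter, when 23146 genes at 0 in every library enter, the counts were 21 and 7, with 0 of the 9 genes called. A pseudocount of 0.1 gave 336 lower and limma-voom gave 1006 lower. The replicate block, which pairs same-numbered libraries, gave 0 higher and 0 lower and 0 of the 9 genes, while the block with a mean count of 10 or more gave 981 higher and 871 lower and the same 5 of the 9 genes higher. Fibroblast marker scaling gave 246 higher and 14344 lower, with 0 of the 9 genes higher and 2 lower, and Plat reversed to -1.12. Without 1 library, 11 to 453 genes were higher, 1 to 442 lower and 0 to 2 of the 9 genes higher, fewest without Col6a1- CAFs replicate 1 (11 higher, 1 lower, 0 of the 9). For Plau over Serpine2 the log2 difference was -0.45 to 0.18 without 1 library, and it reversed without Col6a1+ CAFs replicate 1 or Col6a1- CAFs replicate 3. Except for Plat, none of the 9 log2 fold changes changed sign under the alternatives run. With 3 libraries a group, the 5 calls rest on few libraries, and Tfpi2 has few counts and a wide spread between libraries.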
